A study of Mus musculus with 6 samples.

Results

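The genes described here are 7 B cell genes read library by library: Cd79a, Cd79b, Cd22, Blk and Fcmr, which encode parts or partners of the B cell receptor, and Ms4a1 and Pax5, which mark the lineage. They are the rows of the deposited table whose symbol is on a list of 9 B cell receptor and lineage genes. Of the 9 symbols, 7 had a row among 17030 genes, and Ighm and Ighd, the constant regions of the IgM and IgD heavy chains, are not analysed here. The list was chosen by the CPM of these genes in the same 6 libraries, where they were uneven, so their levels by library are a description and no test is made of that unevenness.

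RNA came from mononuclear cells isolated from skeletal muscle of 6 male C57BL/B6 mice, all bearing LLC tumours (Lewis lung carcinoma, a transplanted tumour used to study cancer-associated muscle wasting). In 3 mice, genotype Pax7 Cre ErT x IKKbfl/fl written Pax7-CreERT below, the muscle stem cell gene Pax7 drove a Cre recombinase that tamoxifen switches on, and both copies of the gene for IKKb, a kinase that activates NF-kB, were floxed. The other 3 mice, the controls, were IKKbfl/fl without the Cre. Every mouse, control or not, received tamoxifen on days 10 to 14 after the tumour cells were injected. The Cre is driven in Pax7-expressing cells, not in B cells, and no group had Cre without floxed IKKb or lacked a tumour. Ages are not given in the labels. Replicate numbers follow the order of the sample records and pair no mice, so the shared number of Pax7-CreERT replicate 3 and control replicate 3 has no meaning of its own.

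B cells detect antigen through a membrane immunoglobulin that cannot signal alone. It is carried with the Cd79a and Cd79b chains, whose tails are phosphorylated by Src-family kinases such as Blk, while Cd22 recruits phosphatases that dampen the signal. Pax5 is the transcription factor that commits precursors to the lineage and activates many of its genes, Cd79a among them. B cells circulate in blood and gather in lymphoid organs, and are usually a minor population of muscle.

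The start regions of members in the RefSeq promoter table of GRCm38.p6 were available for 4 of the 7 genes, and those of a receptor chain and an inhibitory receptor are shown. Each run covers 250 bases before the annotated start and 50 from it, on the gene's strand. Capitals mark matches, on either strand, to 4 motifs named for factors of the B lineage: the octamer ATTTGCAT, the EBF1 palindrome (TCCC, 2 bases of any kind, GGGA), the E2A E-box CAGGTG and the PU.1 core GAGGAA. Cd79a lies at chr7:24897247-24897546 on the plus strand, and Cd22 at chr7:30878979-30879278 on the minus strand.
Cd79a: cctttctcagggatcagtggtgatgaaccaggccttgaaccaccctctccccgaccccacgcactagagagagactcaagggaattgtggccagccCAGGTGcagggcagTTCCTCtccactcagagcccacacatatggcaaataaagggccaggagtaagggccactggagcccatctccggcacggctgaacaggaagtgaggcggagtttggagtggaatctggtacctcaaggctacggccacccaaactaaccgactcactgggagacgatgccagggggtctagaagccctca
Cd22: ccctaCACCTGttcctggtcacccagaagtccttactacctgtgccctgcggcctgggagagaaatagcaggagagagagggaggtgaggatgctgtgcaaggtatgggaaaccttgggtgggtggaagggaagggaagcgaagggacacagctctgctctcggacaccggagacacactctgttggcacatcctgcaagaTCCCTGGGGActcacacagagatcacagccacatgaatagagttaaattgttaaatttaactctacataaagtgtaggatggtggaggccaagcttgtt
In the Cd79a window the capitals are an E-box at position -154 from the start and a PU.1 core at -140. In the Cd22 window they are an E-box at -245 and the EBF1 palindrome at -49. That window belongs to a RefSeq start 1314 bases downstream of the gene's start in the deposited table. Fcmr had an E-box and a PU.1 core, and Pax5 had a match to none of the 4 motifs. Over all 32851 promoter windows of this length, 20.2% held the E-box, 28.3% the PU.1 core, 1.74% the octamer and 0.904% the EBF1 palindrome, and no 2 matches overlapped in either window shown. These matches describe letters only.

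The deposited unit was CPM, a gene's reads for every 1000000 assigned to genes. Estimated depths ran from 4054000 to 13355000 reads, with Pax7-CreERT replicate 3 (4913000) and control replicate 3 (4054000) the shallowest. Control replicate 3 stood apart: 12.6% of its CPM came from haemoglobin genes, and 1.84% to 4.83% in the other 5 libraries. The tissue's defining markers were present in every library, with Pecam1 of endothelium at 1943 to 2645 CPM, Pdgfra of fibro-adipogenic progenitors at 125 to 322 CPM and Pax7 of muscle stem cells at 10.9 to 21.6 CPM. Over 14763 genes tested with limma, 1 gene, Zfp697, was lower in Pax7-CreERT and passed at an adjusted p under 0.05 between the genotypes.

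All 7 B cell genes were highest in control replicate 3 and second highest in Pax7-CreERT replicate 3, one library of each genotype. Their summed level was 16.9, 11.7 and 99.9 CPM in Pax7-CreERT replicates 1, 2 and 3, and 17.2, 16.7 and 164 CPM in control replicates 1, 2 and 3. The 4 libraries other than the replicates numbered 3 thus lay between 11.7 and 17.2 CPM, and the genotypes overlapped. Among all 14763 genes tested, 5.84% had these libraries as their 2 highest. Highest over lowest CPM ran from 14.4-fold for Pax5 to 23.1-fold for Blk. On CPM + 1 this ratio had a median of 9.71 over the 7 genes and 1.57 over all genes tested, and it reached 4-fold in all 7, against 2.13% of genes tested. Because the list was chosen for such values, nothing is read from these shares.

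**Figure D1:**
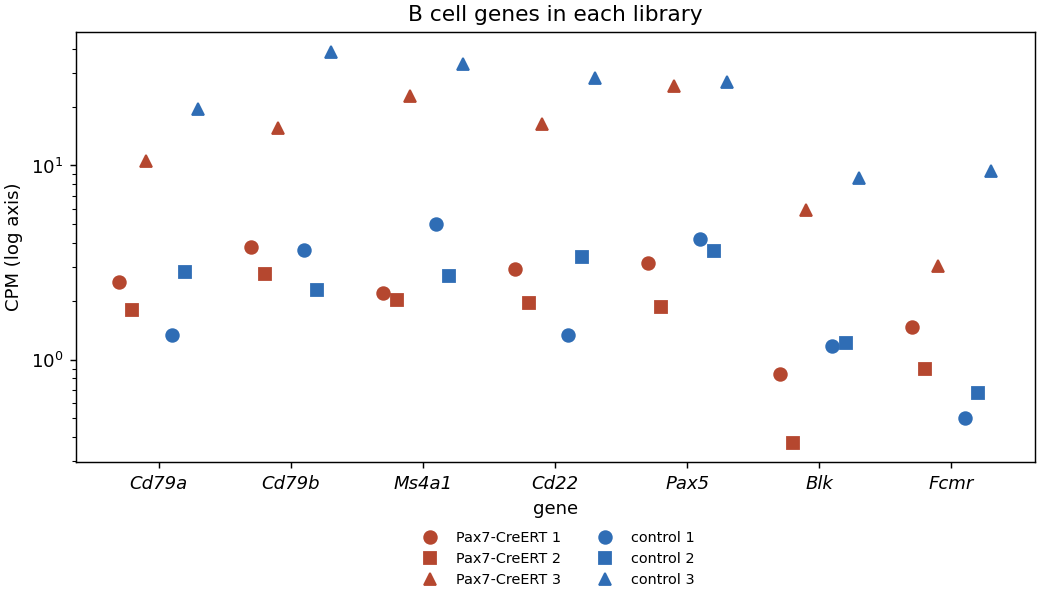
Level of the 7 B cell genes in each library, in CPM on a log axis. Each point is 1 library, red for Pax7-CreERT and blue for control, with the replicate given by the marker. Triangles, the replicates numbered 3, lie above the other 4 libraries for every gene, from 3.05 CPM for Fcmr to 38.5 CPM for Cd79b.

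The signalling chains of the receptor came first. Cd79a (chromosome 7, 24897497 to 24901858, plus strand, the gene of the promoter printed above) measured 2.52, 1.80 and 10.6 CPM in Pax7-CreERT replicates 1, 2 and 3, and 1.34, 2.83 and 19.5 CPM in control replicates 1, 2 and 3. Pax7-CreERT replicate 3 was 4.19 times the next library of its genotype, and control replicate 3 was 6.89 times the next control. Cd79b, its partner chain (chromosome 11, 106311341 to 106314562, minus strand), measured 3.78, 2.77 and 15.7 CPM in the Pax7-CreERT libraries and 3.68, 2.29 and 38.5 CPM in the controls. Here control replicate 3 stood 10.5 times above the next control, and Pax7-CreERT replicate 3 stood 4.14 times above the next library of its genotype.

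Next were the genes that modulate the receptor. Cd22, the inhibitory co-receptor (chromosome 7, 30865404 to 30880342, minus strand), measured 2.94, 1.95 and 16.3 CPM in the Pax7-CreERT libraries and 1.34, 3.37 and 28.1 CPM in the controls. Blk, the Src-family kinase (chromosome 14, 63372837 to 63417187, minus strand), was fainter, at 0.841, 0.374 and 5.90 CPM in the Pax7-CreERT libraries and 1.17, 1.21 and 8.63 CPM in the controls. Both genes had the same 2 libraries far above the rest, and in both the third control was the highest value. Fcmr, the Fc receptor for IgM (chromosome 1, 130865777 to 130880790, plus strand), measured 1.47, 0.899 and 3.05 CPM in the Pax7-CreERT libraries and 0.501, 0.674 and 9.37 CPM in the controls. Fcmr was the member least separated in Pax7-CreERT, with replicate 3 at 2.07 times replicate 1, and it rested on an estimated 3 to 38 reads per library.

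Lineage genes showed the same pattern. Ms4a1, which encodes the surface protein CD20 (chromosome 19, 11249679 to 11266149, minus strand), measured 2.21, 2.02 and 22.8 CPM in the Pax7-CreERT libraries and 5.01, 2.69 and 33.3 CPM in the controls. Pax5 (chromosome 4, 44524751 to 44710694, minus strand) measured 3.15, 1.87 and 25.6 CPM in the Pax7-CreERT libraries and 4.18, 3.64 and 26.9 CPM in the controls. It was the one member whose 2 high libraries were nearly level. A gene on the other strand, 5730488B01Rik, shares 2311 bases with Pax5 and measured 0 to 0.611 CPM in the Pax7-CreERT libraries and 0.167 to 1.73 CPM in the controls. Whether strand was used in counting is not given in the sources used here. None of the other 6 members overlaps a row of the table.

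The B cell genes were low but above 0 in every library. In the 4 libraries with low levels, members rested on an estimated 3 to 37 reads each, and in the replicates numbered 3 on 15 to 156. Because the libraries hold bulk RNA, a larger number of B cells and more RNA per cell cannot be told apart.

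Per kilobase of exon (GENCODE M21 on the same genome build), the order of mean levels was Cd79b, Cd79a, Ms4a1, Cd22, Fcmr, Pax5 and Blk. Cd79b averaged 7.77 ± 10.0 CPM per kilobase and Blk 1.30 ± 1.47 CPM per kilobase (SD over 6 libraries). The SDs exceed the means, so order was read within libraries. Cd79b was the highest of the 7 genes in 5 libraries and Cd79a in 1, control replicate 2. Ms4a1 was above Cd22 in all 6 libraries, whereas Cd22 was above Fcmr in 2 and Fcmr above Pax5 in 3, so these neighbours have no settled order.

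The 2 high libraries are set side by side here gene by gene, as a description with no test, since these values chose the genes. The ratio of Pax7-CreERT replicate 3 to control replicate 3 was 0.954 for Pax5 (95% counting interval 0.732 to 1.24) and 0.407 for Cd79b (0.306 to 0.538). Fcmr had the lowest ratio, 0.326 (0.166 to 0.606). Cd79a stood at 0.543 (0.375 to 0.780), Cd22 at 0.579 (0.429 to 0.777) and Ms4a1 at 0.684 (0.528 to 0.886), and Blk at 0.684 (0.403 to 1.15). As a share of the 7 genes' summed CPM, Pax5 was 25.7% in Pax7-CreERT replicate 3 and 16.4% in control replicate 3, and Cd79b was 15.7% in Pax7-CreERT replicate 3 and 23.4% in control replicate 3. These intervals are exact binomial and cover the counting of reads in 1 mouse of each genotype, so they compare the libraries and not the genotypes.

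**Figure D2:**
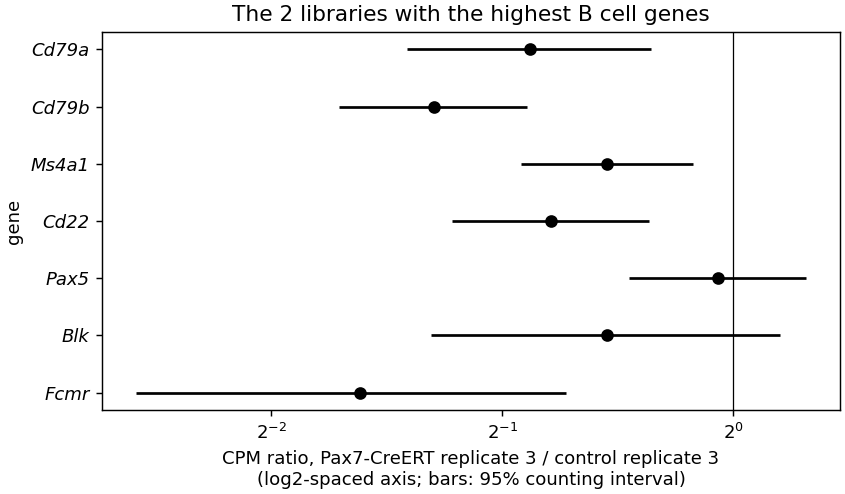
Ratio of CPM in Pax7-CreERT replicate 3 to that in control replicate 3 for each gene, on a log2-spaced axis, with 95% counting intervals as bars. The points run from 0.326 for Fcmr to 0.954 for Pax5.

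Between the genotypes the B cell genes did not pass the test. Of the 7 members, 0 passed limma at an adjusted p under 0.05, where 0.00677% of all genes tested did, and 0 had an unadjusted p under 0.05, where 5.52% of all genes tested did. All 7 passed the filter on low values, which asks for at least 1 CPM in at least 3 libraries. None had genotypes that did not overlap, where 11.0% of all genes tested had. The list was chosen for unevenness in these same libraries, and 1 library of each genotype was high. That widens the spread within genotypes and favours overlap, so nothing about genotype is read from these counts. Log2 fold changes on log2(CPM + 1), Pax7-CreERT minus control, ran from -0.57 for Ms4a1 to -0.15 for Fcmr, with a median of -0.34 over the members and 0.09 over all genes tested.

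The error around these differences was wide. Cd79b averaged 7.41 ± 7.17 CPM in Pax7-CreERT and 14.8 ± 20.5 CPM in controls (SD, n = 3 each), and limma put the log2 fold change at -0.34 with SE 0.85, a 95% interval of -2.24 to 1.56 and an adjusted p of 0.966. Ms4a1 averaged 9.01 ± 11.9 CPM in Pax7-CreERT and 13.7 ± 17.0 CPM in controls (log2 fold change -0.57, 95% interval -2.58 to 1.43, limma adjusted p = 0.945). Pax5 averaged 10.2 ± 13.4 CPM in Pax7-CreERT and 11.6 ± 13.3 CPM in controls (log2 fold change -0.36, 95% interval -2.25 to 1.54). For these 3 genes the SD is close to or above the mean in both genotypes, and the interval was -2.16 to 1.78 for Cd22 and -1.62 to 1.31 for Fcmr, the narrowest of the 7. A 2-fold difference on CPM + 1 in either direction lies inside the interval of every member, so a difference of that size is not excluded here. Exact 2-sided permutation tests on single members gave p of 0.5 or more, and the smallest p possible with 3 mice a genotype is 0.1. The choice of these genes for their unevenness bears on those p-values too.

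The direction depended on which libraries were kept, and not only on those numbered 3. Without Pax7-CreERT replicate 2 the log2 fold change was 0.17 for Cd79a, 0.076 for Cd79b, 0.31 for Cd22, 0.27 for Pax5 and 0.094 for Fcmr. In that fit it was -0.064 for Ms4a1 and -0.010 for Blk. Without Pax7-CreERT replicate 1 it was 0.0028 for Cd79a and 0.097 for Cd22, and below 0 for the other members tested. Without control replicate 3 the log2 fold change was 0.77 for Cd79b, 0.87 for Cd22 and 0.38 for Ms4a1, and without Pax7-CreERT replicate 3 it was -0.996, -0.97 and -1.55 for the same genes. With both left out, an alternative chosen after the data were seen, 5 members could be tested and 0 passed. The values were then 0.07 for Cd79a (95% interval -0.70 to 0.84), 0.11 for Cd79b (-0.57 to 0.80), 0.09 for Cd22 (-0.72 to 0.90), -0.60 for Ms4a1 (-1.31 to 0.11) and -0.50 for Pax5 (-1.17 to 0.16). Blk and Fcmr did not reach the filter in those 4 libraries. Over all genes that fit called 22 of 14341, or 0.153%.

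**Figure D3:**
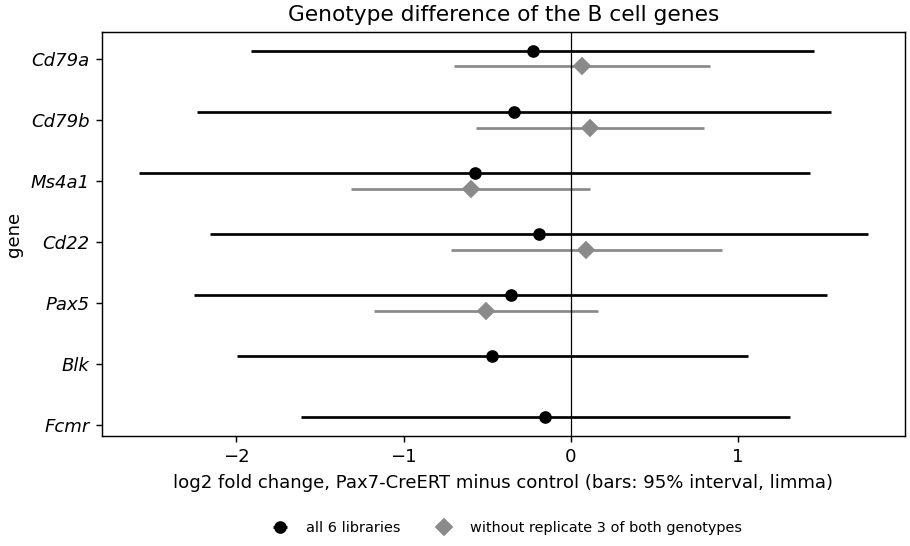
Log2 fold change of each B cell gene, Pax7-CreERT minus control, with limma's 95% intervals as bars; black circles use all 6 libraries and grey diamonds leave out replicate 3 of both genotypes, where Blk and Fcmr were not tested. Every interval includes 0, and the grey intervals are narrower.

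Other genes of the B lineage were read from 7 companion lists, chosen like the members with earlier results of these data known. Of 73 listed genes 57 had a row and 47 were tested. None of the 47 passed limma in either direction, and 0 had an unadjusted p under 0.05. Their log2 fold changes were above 0 for 27 and below 0 for 20, with a median of 0.03, close to the 0.09 of all genes tested. Both replicates numbered 3 were the 2 highest libraries for 31 of the 47, or 66.0%, against 5.84% of all genes tested. These genes come from the same libraries as the members and add no independent samples.

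Surface receptors of B cells had this order for 10 of 11 genes tested. Cr2, the complement receptor CD21 of mature B cells, measured 4.94, 6.89 and 53.3 CPM in the Pax7-CreERT libraries and 9.03, 7.68 and 74.0 CPM in the controls. Cd72, an inhibitory co-receptor, measured 2.0, 1.85 and 11.9 CPM in the Pax7-CreERT libraries and 0.513, 2.59 and 18.2 CPM in the controls. The exception was Cd83, an activation marker that dendritic cells also carry, at 39.4, 11.8 and 36.0 CPM in the Pax7-CreERT libraries and 16.4, 16.2 and 38.5 CPM in the controls. Its highest value was in Pax7-CreERT replicate 1.

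Genes of homing and survival behaved likewise for 6 of 7 tested. Ccr7, a chemokine receptor that guides lymphocytes and dendritic cells into lymph nodes, measured 7.46, 5.09 and 44.0 CPM in the Pax7-CreERT libraries and 7.69, 6.87 and 52.8 CPM in the controls. Tnfrsf13c, the receptor for the B cell survival factor BAFF, measured 0.631, 0.824 and 10.4 CPM in the Pax7-CreERT libraries and 0.836, 1.21 and 18.3 CPM in the controls. Both had the 2 high libraries of the members.

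Signalling and transcription factor genes were divided. The 2 replicates numbered 3 were highest for 9 of 13 signalling genes tested and for 5 of 10 transcription factor genes. Bank1, a B cell scaffold protein, measured 4.52, 4.12 and 21.4 CPM in the Pax7-CreERT libraries and 2.34, 3.91 and 25.9 CPM in the controls. Spib, a lymphoid Ets factor, measured 3.36, 2.25 and 17.9 CPM in the Pax7-CreERT libraries and 2.51, 4.18 and 32.1 CPM in the controls. In contrast Lyn, a Src-family kinase also found in myeloid cells, was even, at 104, 109 and 87.3 CPM in the Pax7-CreERT libraries and 94.4, 92.0 and 89.6 CPM in the controls. Ebf1, a B lineage factor that stromal and fat precursors also express, was the flattest companion gene, between 250 and 261 CPM in the Pax7-CreERT libraries and between 232 and 261 CPM in the controls. Irf8, shared with myeloid cells, ranged from 31.3 to 36.2 CPM in the Pax7-CreERT libraries and from 28.4 to 41.4 CPM in the controls, and Malt1, a signalling protease, from 113 to 193 CPM in the Pax7-CreERT libraries and from 122 to 156 CPM in the controls. In 13 of the 47 companion genes the highest library was under 2-fold above the lowest on CPM + 1.

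Genes of antibody-secreting cells were mixed. Of 5 plasma cell genes tested 1, or 20%, had the replicates numbered 3 highest, against 5.84% of all genes tested, and the difference between these shares was not tested. That gene was Irf4, a factor of activated B cells and plasma cells, at 17.9, 11.5 and 35.8 CPM in the Pax7-CreERT libraries and 11.0, 12.0 and 49.3 CPM in the controls. Xbp1, the factor for secretory capacity, was lowest in Pax7-CreERT replicate 3 at 120 CPM, and the other 5 libraries lay between 149 and 162 CPM. Sdc1, a plasma cell marker that epithelial and stromal cells also express, measured 64.8, 69.8 and 62.9 CPM in the Pax7-CreERT libraries and 58.2, 51.1 and 89.8 CPM in the controls. Mzb1, a chaperone of antibody-secreting cells (named after its values were seen), was too low to be tested and was also highest in the replicates numbered 3, at 0.631, 0.0749 and 1.42 CPM in the Pax7-CreERT libraries and 0, 0 and 2.22 CPM in the controls. The remaining plasma cell genes, Derl3 and Prdm1, did not have that order. Derl3 was highest in control replicate 1 at 2.34 CPM and was 0 in control replicate 3. Prdm1 ranged from 13.9 to 16.3 CPM in the Pax7-CreERT libraries and from 11.5 to 14.4 CPM in the controls. Of 11 immunoglobulin chain genes listed, 1 had a row. That gene, Jchain, the joining chain of secreted IgM and IgA, measured 2.63, 1.27 and 3.46 CPM in the Pax7-CreERT libraries and 0.669, 1.21 and 1.48 CPM in the controls. Of 6 genes of B cell precursors, 1 had a row and 0 were tested. That gene, Vpreb3, was at most 0.225 CPM in 5 libraries and 1.97 CPM in control replicate 3.

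**Figure D4:**
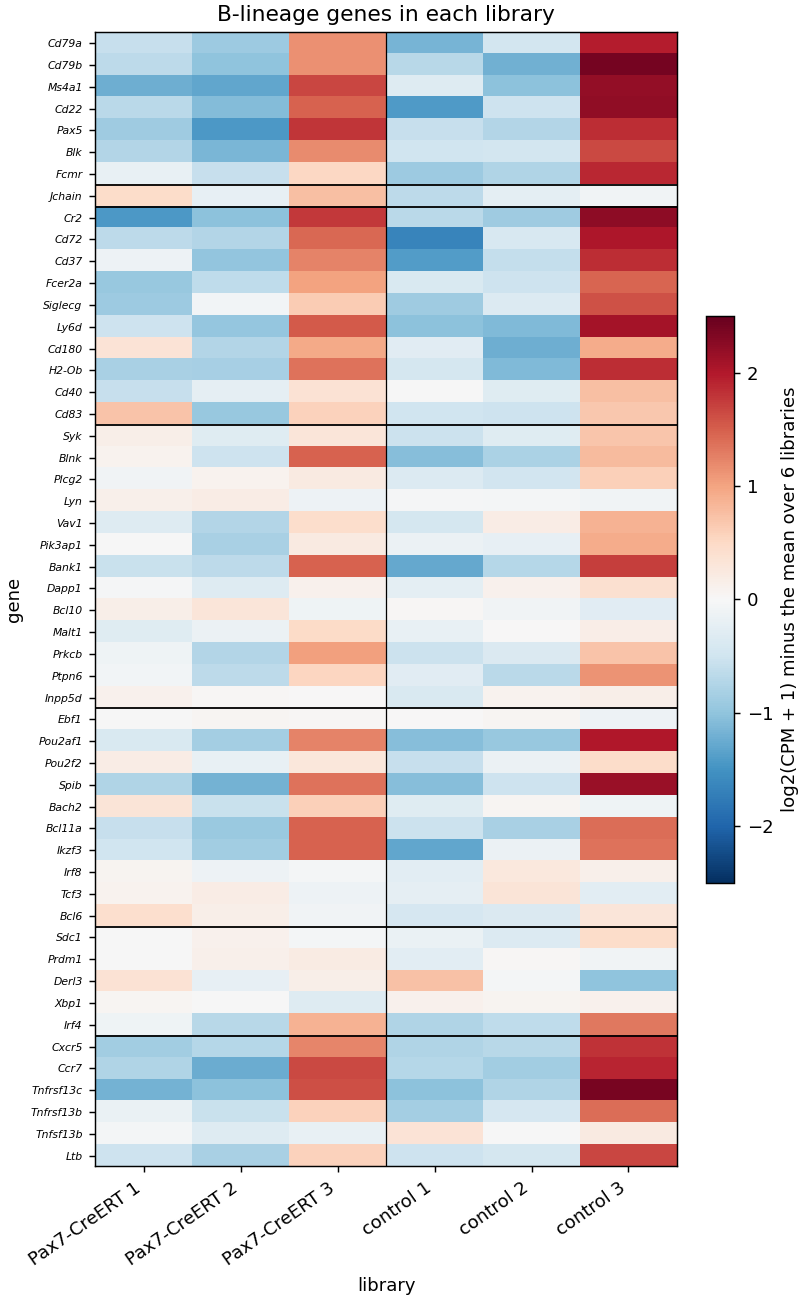
Log2(CPM + 1) minus the mean over the 6 libraries for the 7 B cell genes (top block) and 45 of the 47 companion genes tested, in blocks by list, with Pax7-CreERT libraries left of the line and controls right of it. Red is above and blue below the gene's mean. The third column of each genotype is red for most receptor and homing genes, while Lyn, Ebf1, Irf8 and Xbp1 are pale throughout.

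The 10 genes closest to the members' mean profile over the 6 libraries were, in order, Ptprcap, Spib, Hvcn1, Cxcr5, Ccr7, H2-Eb2, Pou2af1, Ly6d, Fcrla and H2-Ob. Closeness was the root-mean-square difference of centred log2(CPM + 1) profiles, which was 0.16 for Ptprcap and 0.25 for H2-Ob, against a median of 1.26 over the 14726 candidate genes. The members themselves, which make up that mean profile, lay at 0.22 for Cd79a up to 0.43 for Fcmr. Of the 10, 7 were on the companion lists, which hold 57 of the 17030 genes with a row. Those lists were chosen with earlier results of these data known, so this overlap is a description and was not tested. Ptprcap, a protein associated with the CD45 phosphatase of lymphocytes, measured 3.57, 4.19 and 21.8 CPM in the Pax7-CreERT libraries and 4.68, 4.72 and 38.0 CPM in the controls. Hvcn1, a voltage-gated proton channel, measured 9.93, 5.19 and 29.97 CPM in the Pax7-CreERT libraries and 6.67, 8.14 and 53.0 CPM in the controls.

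Lists of other cell types were summed in the same libraries. The 5 MHC class II genes, which B cells share with dendritic cells and macrophages, summed to 487, 306 and 633 CPM in the Pax7-CreERT libraries and 195, 294 and 939 CPM in the controls, and all 5 had the replicates numbered 3 highest. The 15 T and NK cell genes with a row summed to 29.0, 18.4 and 48.2 CPM in the Pax7-CreERT libraries and 21.9, 21.0 and 48.1 CPM in the controls. Those sums were also highest in the replicates numbered 3, by less than for the B cell genes, and 4 of the 7 genes tested had that order. Within that list Cd2, an adhesion molecule of T and NK cells that mouse B cells also carry, measured 5.26, 3.44 and 12.8 CPM in the Pax7-CreERT libraries and 4.51, 3.37 and 17.3 CPM in the controls. The defining T cell genes Cd3e and Cd3g (named after their values were seen) were low. In CPM both were highest in the replicates numbered 3, which held for 8 of the 15 genes. Those libraries were the shallowest, at an estimated 4.91 reads per CPM in Pax7-CreERT replicate 3 and 4.05 in control replicate 3. Both genes therefore rest on a few reads there, and the order of the libraries for them is not settled. Cd3e measured 0.526, 0 and 0.814 CPM in the Pax7-CreERT libraries and 0.167, 0.135 and 0.987 CPM in the controls. Cd3g measured 0.210, 0.300 and 0.611 CPM in the Pax7-CreERT libraries and 0, 0.135 and 1.23 CPM in the controls. In all, 5 of the 15 genes were at 0 in at least 1 library, Cd3e and Cd3g among them. Other genes fixed by rule were Cd4, at 4.07 CPM in Pax7-CreERT replicate 3 and 8.14 CPM in control replicate 3, and Tcf7, a T cell factor, at 11.4 CPM in Pax7-CreERT replicate 3 and 3.21 CPM in control replicate 3.

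Summed haemoglobin genes and the summed B cell genes were both highest in control replicate 3, then in Pax7-CreERT replicate 3, and lowest in Pax7-CreERT replicate 2. Of 6 erythroid genes tested, 3 had both replicates numbered 3 highest: Hbb-bs, Hba-a2 and Slc4a1. Hbb-bt and Alas2 were slightly higher in control replicate 1 than in Pax7-CreERT replicate 3. Hba-a1 was highest in control replicate 1, at 30.9 CPM, and measured 0.0251 CPM in Pax7-CreERT replicate 3. The B cell sums of control replicate 1, Pax7-CreERT replicate 1 and control replicate 2 were nearly level, at 17.2, 16.9 and 16.7 CPM. The order of those libraries in B cell genes is therefore not settled. Haemoglobin genes summed to 27214, 18377 and 48299 CPM in the Pax7-CreERT libraries and 44730, 25663 and 126305 CPM in the controls. Pax7-CreERT replicate 3 and control replicate 1 were close in haemoglobin, while the B cell genes summed to 99.9 CPM in Pax7-CreERT replicate 3 and 17.2 CPM in control replicate 1. With CPM recomputed without the haemoglobin genes, the members' median log2 fold change was -0.39, and the mean level of the members spanned 3.26 log2 units between libraries, against 3.09 as deposited. That rescaling changes only the total that CPM is divided by and takes out no B cell reads. Macrophage genes were highest in control replicate 3 at 800 CPM but measured 351 CPM in Pax7-CreERT replicate 3, inside the range of the other libraries, 242 to 496 CPM, and 0 of 8 had both replicates numbered 3 highest. The 6 neutrophil genes summed to 66.2 to 102 CPM in Pax7-CreERT and 86.4 to 117 CPM in controls, with S100a9, a granule protein, at 28.7 to 49.9 CPM in Pax7-CreERT and 46.1 to 57.3 CPM in controls. Marrow progenitor genes were near 0, with Mpo at most 0.736 CPM in Pax7-CreERT and 0.493 CPM in controls.

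Plasmacytoid dendritic cells share Blk and Spib with B cells. Their 5 listed genes summed to 99.7 to 107 CPM in Pax7-CreERT and 48.6 to 95.6 CPM in controls, lowest in control replicate 3. Most of that sum was Bst2, which many cell types express, at 89.3, 98.8 and 88.7 CPM in the Pax7-CreERT libraries and 85.4, 83.1 and 37.7 CPM in the controls. The more specific marker Siglech was highest in control replicate 3, at 1.16, 1.87 and 1.83 CPM in the Pax7-CreERT libraries and 0.501, 0.404 and 4.19 CPM in the controls. Siglech alone of the 5 was highest there. Ccr9 measured 8.94, 3.59 and 6.92 CPM in the Pax7-CreERT libraries and 8.36, 7.27 and 5.43 CPM in the controls. Cox6a2, like Bst2, was lowest in control replicate 3, at 0.493 CPM, and Klk1 measured 0.740 CPM there. None of the 5 had both replicates numbered 3 highest. Of the lymph node stroma list 2 of 5 genes had a row. Ccl21a, a chemokine of lymphatic vessels and lymph node stroma, measured 20.8, 14.0 and 11.5 CPM in the Pax7-CreERT libraries and 9.80, 8.47 and 14.6 CPM in the controls. Cxcl13, which attracts B cells through the receptor Cxcr5, measured 7.67, 2.70 and 11.4 CPM in the Pax7-CreERT libraries and 4.85, 9.03 and 36.5 CPM in the controls (both named after their values were seen). The part of haemoglobin, depth, MHC class II and T cell genes in the B cell levels was not tested.

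**Figure D5:**
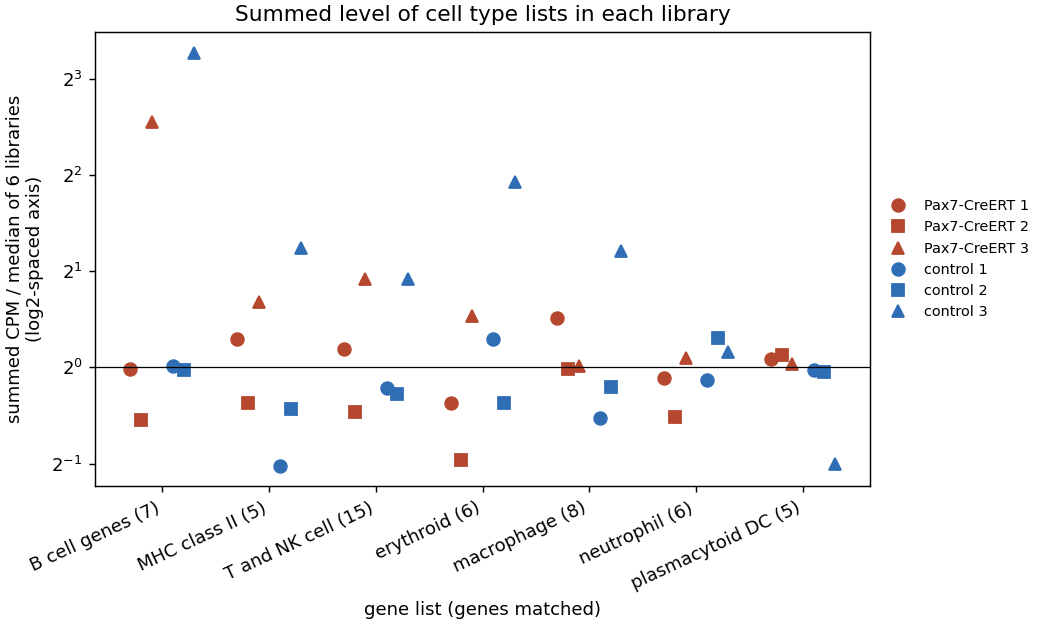
Summed CPM of 7 gene lists in each library divided by the median of the 6 libraries, on a log2-spaced axis; red is Pax7-CreERT, blue is control and the marker gives the replicate. Both replicates numbered 3 lie highest for B cell, MHC class II, T and NK cell and erythroid lists, and control replicate 3 is lowest for the plasmacytoid dendritic cell list.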

How the data were processed

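Per the labels, RNA was extracted with Trizol from muscle mononuclear cells and libraries were made with a strand-specific SureSelect kit. The deposited values are CPM by the authors, read from the values: each library sums to 1000000 plus 0.0001 per gene, and that constant was subtracted. The submitters' processing notes name Partek, DESeq2 and mm10 without their roles; the aligner and counting rule are not given in the sources used here. Subtracting 1 from the table's ends gave the RefSeq ends of all 7 members. Depth was estimated from the smallest step between low values, of which 92.9% to 93.9% (up to 20 reads) were whole within 0.05 read, so reads per gene are estimates.

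Genotypes were compared with limma 3.58.1 (R 4.3.3) on log2(CPM + 1), with a mean-variance trend, over genes that reached 1 CPM in 3 or more libraries, and Benjamini-Hochberg adjustment covered all genes tested. This scale understates changes of faint genes. The limma p-values set the genotype difference against the spread between these samples, moderated over all genes tested. The fit was also run on simulated data, with the spread between libraries capped and changes planted only in the more abundant genes. That run therefore does not show how the fit performs on genes as uneven as the members. Members and lists were chosen with earlier results of these data known. Most genes outside the members were named by rule: the 2 most abundant and the most uneven of each list up to 30 genes, genes past the threshold, and the 10 closest in profile. Others, among them Derl3, Prdm1, Mzb1, Cd3e, Cd3g, Ccl21a and Cxcl13, were named outside that rule. Some genes that the rule fixed, such as S100a8 and Csf3r, are not printed. Alternatives changed the pseudocount, filter, scaling, trend, weights and libraries left out. Values of 2 companion genes are not reported here.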

Additional observations from a re-analysis of the deposited data

How the results depend on the processing

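Under all 14 alternatives 0 members and 0 companion genes passed limma at an adjusted p under 0.05. Over all alternatives the members' adjusted p ran from 0.667 to 0.9999. The sign of the members' log2 fold changes was not stable. It turned in 22 of 93 values, counting each member tested under each alternative. With array weights it was 0.19 for Cd79a, 0.32 for Cd79b, 0.27 for Cd22, 0.021 for Pax5 and 0.37 for Fcmr, and with a pseudocount of 0.1 it was 0.056 for Fcmr. Without replicate 3 of both genotypes it was 0.069 for Cd79a, 0.11 for Cd79b and 0.093 for Cd22. Leaving out 1 library gave -0.87 to 0.70 for Cd79a, -1.02 to 0.77 for Cd79b, -0.97 to 0.87 for Cd22, -1.55 to 0.38 for Ms4a1, -1.34 to 0.48 for Pax5, -1.17 to 0.24 for Blk and -0.64 to 0.094 for Fcmr, and -0.996 to 0.70 for the members' median. The cause of the turned signs was not tested, and the fits that left libraries out also had fewer samples. The members' span between libraries was 2.34 to 3.09 log2 units with 1 library left out and 0.36 without replicate 3 of both genotypes. The count of genes passing, 1 as reported, was 2 with no filter, 0 to 1 with 1 library left out and 22 without replicate 3 of both genotypes. Members that missed the filter in a refit, Fcmr and Blk, have no value there. No paired analysis was possible because the labels give no replicate numbers, and those used here only name the samples. Depth limits the faint members most: Fcmr had an estimated 3 reads in control replicate 1.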
